A study of Mus musculus with 10 samples.

Results

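Mural cells wrap the small vessels of the heart, and 9 genes that mark them (Rgs5, Pdgfrb, Acta2, Myh11, Tagln, Cspg4, Notch3, Cnn1 and Higd1b) were followed in cardiomyocytes (CMs) that had been purified away from other cells. The members were chosen by name, and each of the 9 symbols matched 1 of the 37819 features of the expression table. RNA of purified CMs was sequenced from inbred C57BL6J mice of 3 months (young) and 20 months (old), with 5 libraries per age and no other treatment, and n counts libraries. Hearts of mixed-sex mice were digested on a Langendorff setup, and cells carrying CD31, CD45 or Sca-1 were then taken out with antibodies and beads. These antibodies label endothelial cells, leukocytes and a part of the stromal cells, and none of them is directed at a mural marker. Values are FPKM, the number of fragments normalised to transcript length and to the mapped fragments of a library. Levels of different genes can thus be set side by side only as far as the length correction holds.

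Mural cells comprise pericytes, which sit on capillaries inside the endothelial basement membrane, and smooth muscle cells, which form the contractile wall of arterioles and arteries. Pericytes are recruited by PDGF-B, which endothelial cells release and which binds the receptor encoded by Pdgfrb, while Jagged ligands on the endothelium act on the receptor encoded by Notch3. Smooth muscle cells carry a contractile apparatus of smooth muscle actin, smooth muscle myosin and their regulators, most of whose genes are driven by serum response factor (SRF) with its partner myocardin. Some of these genes, Acta2 first among them, are also used by other cells, including immature or stressed CMs and activated fibroblasts.

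Total FPKM of a library ran from 1155614 to 3289461 over all features and from 399825 to 458918 over protein-coding genes, so the libraries do not share 1 total. The number of reads per library is not stated, and for orientation the deposited mean normalised read counts over the libraries were 3903 for Rgs5, 635 for Acta2, 475.8 for Pdgfrb, 436 for Notch3, 210 for Cspg4, 123 for Myh11, 64.7 for Tagln, 29.5 for Higd1b and 3.13 for Cnn1. The 10 CM markers (Myh6, Tnnt2, Tnni3 and others) summed to between 34301 and 41345 FPKM in each library, so the markers of the labelled cell type were present. Beside them the 9 mural genes summed to between 79.0 and 166 FPKM, which was 0.0185% to 0.0406% of all protein-coding FPKM. Young library 4 and old library 1 stood apart from the other 8. They held the 2 highest sums of the mural genes, of 12 endothelial markers, of 10 fibroblast markers and of 12 leukocyte markers. For this reason results are given with and without both of them. In bulk libraries, fewer cells of a type and less RNA per cell cannot be told apart.

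The promoters of 3 members are shown, picked by their values across libraries given below. There no relation of Acta2 with another member passed its test, whereas Rgs5 and Notch3 moved together. Whether promoter sequence bears on this was not tested, and Pdgfrb, Myh11, Tagln and Higd1b had no promoter to compare. RefSeq promoters of build GRCm38.p6 run from 250 bases before to 50 bases after the start of a gene, and 5 of the 9 members matched (Rgs5, Notch3, Cspg4, Acta2 and Cnn1). Each matched the mm9 genome once, and positions are those of mm9. The Acta2 promoter lies on the minus strand at chr19:34329814-34330113, the Rgs5 promoter on the plus strand at chr1:171585382-171585681 and the Notch3 promoter on the minus strand at chr17:32303786-32304085. Capitals in the Acta2 promoter mark 2 CArG boxes, to which SRF binds, each with 1 G or C in its core, and the letters TGGGAA, which the Notch partner RBPJ recognises and which here overlap the end of the second box.
Acta2 promoter: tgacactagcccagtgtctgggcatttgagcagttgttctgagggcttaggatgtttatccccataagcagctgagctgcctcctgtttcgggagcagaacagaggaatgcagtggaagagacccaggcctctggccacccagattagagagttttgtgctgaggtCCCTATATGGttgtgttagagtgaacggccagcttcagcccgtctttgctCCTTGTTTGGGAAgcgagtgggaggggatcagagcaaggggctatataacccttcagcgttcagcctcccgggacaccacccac
Rgs5 promoter: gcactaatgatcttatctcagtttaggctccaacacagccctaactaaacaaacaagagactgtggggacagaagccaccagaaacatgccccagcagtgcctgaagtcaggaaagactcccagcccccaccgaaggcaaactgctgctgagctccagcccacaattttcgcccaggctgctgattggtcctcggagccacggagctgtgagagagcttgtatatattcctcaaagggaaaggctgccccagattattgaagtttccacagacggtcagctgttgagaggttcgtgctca
Notch3 promoter: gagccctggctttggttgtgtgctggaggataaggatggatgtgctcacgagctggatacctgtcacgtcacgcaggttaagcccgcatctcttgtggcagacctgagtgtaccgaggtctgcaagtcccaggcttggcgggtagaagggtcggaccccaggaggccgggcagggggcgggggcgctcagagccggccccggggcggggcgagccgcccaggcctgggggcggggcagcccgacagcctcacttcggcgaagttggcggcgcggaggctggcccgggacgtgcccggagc
The first box of Acta2, CCCTATATGG, spans bases -84 to -75 and the second, CCTTGTTTGG, bases -34 to -25 from the start. TGGGAA spans bases -27 to -22. These positions count from the RefSeq start. The GENCODE gene of Acta2 begins further downstream, at base 34329826 of chromosome 19, and positions counted from there would differ. Both strands were searched for the CArG box with only A and T in its core, for the box with 1 G or C there and for TGGGAA, and the other 4 promoters held none of the 3. Among 32851 RefSeq promoters of 300 bases, 1.63% held the intact box, 8.5% the box with 1 G or C and 25.6% TGGGAA. A match in letters describes the sequence and does not show binding.

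The levels of the 9 genes spanned a wide range, from Rgs5 down to Cnn1. Rgs5, a regulator of G protein signalling that is abundant in pericytes, had the highest mean, 66.9 ± 27.3 FPKM (SD, n = 10), followed by Acta2 with 26.7 ± 15.7 and Pdgfrb with 6.01 ± 2.22. Higd1b stood at 3.75 ± 1.55, Notch3 at 3.66 ± 1.39, Tagln at 2.74 ± 1.35, Cspg4 at 1.72 ± 0.490 and Myh11 at 1.29 ± 0.538 FPKM. Neighbours in this order were compared library by library with two-sided exact sign permutation tests, adjusted over the 8 steps. Rgs5 exceeded Acta2 in 9 of 10 libraries (adjusted p = 0.00781, exact permutation), the exception being young library 1. Higd1b and Notch3 could not be ordered, since Higd1b was higher in 6 of 10 libraries (adjusted p = 0.832, exact permutation). The other 6 steps were passed in 9 or 10 of 10 libraries, with adjusted exact permutation p-values from 0.00521 to 0.0134. The exons of Higd1b span 847 bases with a mean count of 29.5, those of Notch3 8044 bases with 436. The place of a short gene therefore depends on the length correction, which these p-values do not measure.

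**Figure D1:**
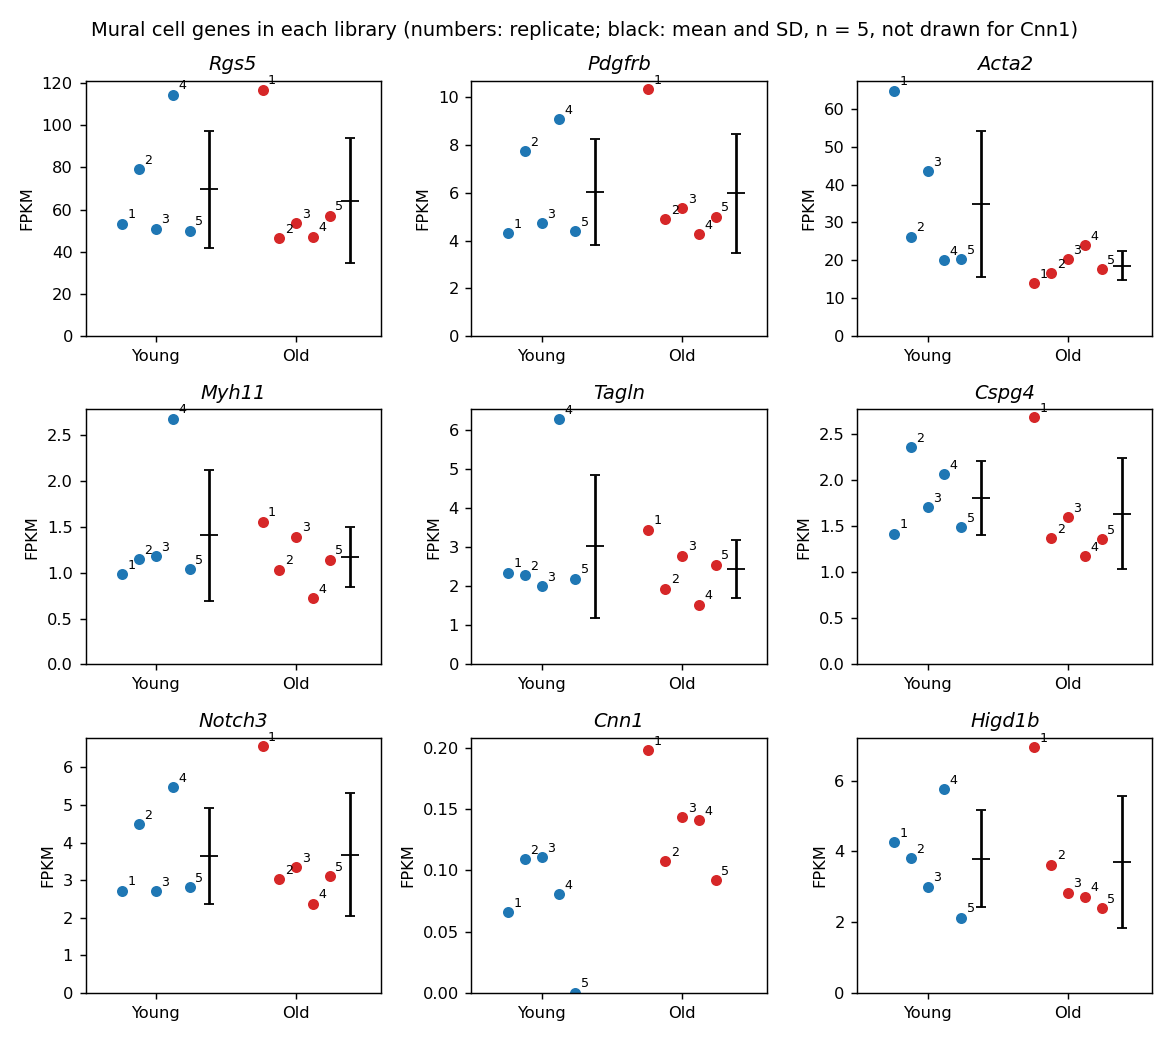
FPKM (y axis, linear, from 0) of each mural cell gene in the 5 young (blue) and 5 old (red) libraries, with the replicate number beside each point and the mean with its SD in black (left out for Cnn1, which is listed at 0 in young library 5). Old library 1 is highest for Rgs5, Pdgfrb, Cspg4, Notch3, Cnn1 and Higd1b, young library 4 for Myh11 and Tagln, and young library 1 for Acta2.

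Rgs5 (ENSMUSG00000026678, chromosome 1, 171585632 to 171625944, plus strand) stood at 53.3, 79.2, 50.8, 115 and 50.04 FPKM in young libraries 1 to 5 and at 117, 46.4, 53.6, 47.2 and 57.2 FPKM in old libraries 1 to 5. In 7 libraries its level thus lay between 46.4 and 57.2 FPKM, and it was raised in young libraries 2 and 4 and in old library 1. The ages overlapped over nearly their whole range.

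Of the receptors and surface proteins, Pdgfrb (ENSMUSG00000024620, chromosome 18, 61204804 to 61244715, plus strand), the receptor for PDGF-B, gave 4.30, 7.75, 4.73, 9.09 and 4.39 FPKM in the young libraries and 10.3, 4.90, 5.37, 4.26 and 4.998 FPKM in the old ones. Notch3 (ENSMUSG00000038146, chromosome 17, 32257765 to 32303825, minus strand), the Notch receptor of mural cells, gave 2.72, 4.49, 2.70, 5.47 and 2.82 FPKM in the young libraries and 6.56, 3.03, 3.34, 2.37 and 3.11 FPKM in the old ones. Both genes were high in the libraries that were high for Rgs5, in the same order of old 1, young 4 and young 2. Cspg4 (ENSMUSG00000032911, chromosome 9, 56712911 to 56747677, plus strand), which encodes the NG2 proteoglycan of pericytes, gave 1.42, 2.35, 1.70, 2.06 and 1.49 FPKM in the young and 2.68, 1.37, 1.59, 1.17 and 1.36 FPKM in the old libraries. Here young library 2 exceeded young library 4. Of the exon bases of Notch3, 6.07% overlap a long non-coding RNA on the opposite strand, and whether the counting used strand is not stated.

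Higd1b (ENSMUSG00000020928, chromosome 11, 102697163 to 102699354, plus strand), a member of the hypoxia-inducible domain family and a marker of pericytes, stood at 4.26, 3.82, 3.01, 5.77 and 2.13 FPKM in young and 6.95, 3.63, 2.84, 2.72 and 2.40 FPKM in old libraries. Old library 1 and young library 4 were again highest, but young library 1 came next and young library 5 was the lowest of all 10.

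Among the smooth muscle genes, Myh11 (ENSMUSG00000018830, chromosome 16, 14194620 to 14291501, minus strand), the smooth muscle myosin heavy chain, gave 0.983, 1.15, 1.18, 2.68 and 1.04 FPKM in young and 1.56, 1.03, 1.39, 0.720 and 1.14 FPKM in old libraries. Tagln (ENSMUSG00000032085, chromosome 9, 45737711 to 45744141, minus strand), which encodes the actin-bundling protein transgelin, gave 2.35, 2.28, 2.004, 6.27 and 2.20 FPKM in young and 3.45, 1.94, 2.78, 1.53 and 2.56 FPKM in old libraries. Both were highest in young library 4, next in old library 1 and lowest in old library 4. Cnn1 (ENSMUSG00000001349, chromosome 9, 21903725 to 21914074, plus strand), which encodes calponin, an inhibitor of smooth muscle myosin activity, was listed at 0.0661, 0.109, 0.111, 0.0806 and 0 FPKM in young and at 0.198, 0.108, 0.143, 0.141 and 0.0918 FPKM in old libraries. Cnn1 was thus the lowest of the 9 genes, and its libraries overlapped between the ages. Of the Tagln exon bases 4.10% overlap Pcsk7 on the opposite strand, and of 6629 stretches of 50 bases in the Myh11 transcript 26 (0.392%) also occur in the non-muscle myosins Myh9 or Myh10.

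Acta2 (ENSMUSG00000035783, chromosome 19, 34315580 to 34329826, minus strand), which encodes smooth muscle alpha-actin, gave 64.8, 26.2, 43.5, 20.0 and 20.3 FPKM in young and 13.9, 16.6, 20.3, 24.1 and 17.7 FPKM in old libraries. It was highest in young libraries 1 and 3, where Rgs5 stood at 53.3 and 50.8 FPKM, and lowest in old library 1, where 6 of the other 8 reached their highest value. In FPKM, Acta2 amounted to 122% of Rgs5 in young library 1 and to 11.9% in old library 1. By comparison, Pdgfrb lay between 7.94% and 10.6% of Rgs5, Notch3 between 4.78% and 6.52% and Tagln between 2.89% and 5.48% in every library. The lowest Tagln percentages, 2.89% and 2.95%, came from young library 2 and old library 1, and the highest, 5.48%, from young library 4.

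**Figure D2:**
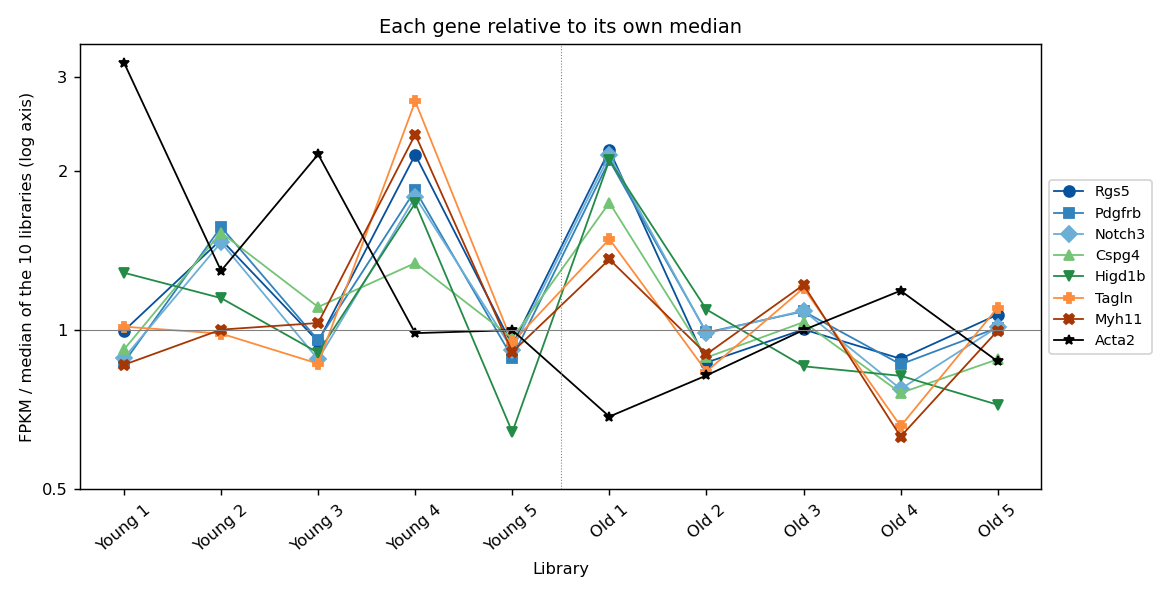
Each gene relative to its own median over the 10 libraries (y axis, log scale) in every library (x axis, dotted line between the ages), for the 8 members that average 1 FPKM or more. In old library 1 Rgs5, Pdgfrb, Notch3 and Higd1b stand at about the same height above 1 and Acta2 lies below 1, whereas in young library 4 Tagln and Myh11 stand highest.

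Of the 9 mural genes, 7 had a positive r with each other over the 10 libraries, in every pair at 0.57 or more, while Acta2 and Cnn1 passed with no other gene. Pearson's r and Spearman's rho of log2(FPKM + 1) were computed for all 36 pairs, each with a two-sided permutation p of 100000 resamples and Benjamini-Hochberg adjustment over the 36. By Pearson's r 17 pairs passed a threshold of 0.05, and by Spearman's rho 12 did. The median r was 0.64. With young library 4 and old library 1 left out, 1 pair passed at n = 8 and the median r was 0.31. Of the 17 pairs, 7 still had r over 0.8 in these 8 libraries (the 6 pairs among Rgs5, Pdgfrb, Notch3 and Cspg4, and Myh11 with Tagln). The other 10 had r from 0.30 to 0.57 there. Some of these 10 also passed by Spearman's rho over all libraries, such as Pdgfrb with Myh11 (rho = 0.87, adjusted permutation p = 0.0251). Subtracting the mean of each age left 16 pairs past the threshold. How many pairs of other genes would pass was not tested. For scale, 8.64% of 10565 protein-coding genes had r over 0.8 with Rgs5 over all 10 libraries.

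Within the pericyte genes (Rgs5, Pdgfrb, Notch3, Cspg4 and Higd1b) all 10 pairs passed by Pearson's r, which ran from 0.74 to 0.99, and 4 passed by Spearman's rho. The closest pair was that of the receptors Pdgfrb and Notch3, with r = 0.99 (adjusted permutation p = 0.00036) and rho = 0.96 (adjusted permutation p = 0.00252), and r was still 0.97 without young library 4 and old library 1, the libraries farthest from the median of Pdgfrb. Rgs5 followed Pdgfrb with r = 0.97 (adjusted permutation p = 0.0036) and rho = 0.83 (adjusted permutation p = 0.0329), and r was 0.90 without the same libraries. For Rgs5 and Cspg4, r was 0.87 (adjusted permutation p = 0.0153), rho 0.72 (adjusted permutation p = 0.0638) and r without those libraries 0.85. Higd1b, with a mean count of 29.5 the lowest of this group, kept less of its r when libraries were left out. Its r with Rgs5 was 0.83 (adjusted permutation p = 0.0172) and rho 0.58 (adjusted permutation p = 0.182), but r was 0.30 in the other 8 libraries, as it was with Notch3, and 0.32 with Pdgfrb. With Cspg4 it was 0.34 there, and 0.59 without young library 2 and old library 1, the farthest from the median of Cspg4. The part of the low counts of Higd1b in these values was not tested.

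Myh11 and Tagln, the myosin heavy chain and transgelin of smooth muscle, were also closely related, with r = 0.97 (adjusted permutation p = 0.00162) and rho = 0.77 (adjusted permutation p = 0.0438). Without young library 4 and old library 4, the farthest from the median of Myh11, r was 0.83, and it was also 0.83 without young library 4 and old library 1. With the 5 pericyte genes these 2 genes gave r between 0.57 and 0.82, of which 6 of 10 pairs passed by Pearson's r and 7 by Spearman's rho. Without the 2 farthest libraries, which are not the same for every pair, the same 10 values ran from -0.01 to 0.76. Without young library 4 and old library 1 throughout, they ran from -0.02 to 0.57. Tagln and Rgs5, for example, had r = 0.82 (adjusted permutation p = 0.0153) and rho = 0.88 (adjusted permutation p = 0.025) in all libraries, and r = 0.42 without young library 4 and old library 1. Whether r differed between the groups of genes was not tested.

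Acta2 had a negative r with each of the other 8 genes, from -0.47 with Notch3 to -0.10 with Higd1b, and none of the 8 passed by either measure (lowest adjusted permutation p of Pearson's r, 0.245). Without young libraries 1 and 3, the farthest from the median of Acta2, the values with the 6 genes other than Rgs5 and Pdgfrb ran from -0.42 with Higd1b to -0.20 with Cspg4. Leaving out young library 4 and old library 1 instead turned the sign with Rgs5 (0.06), Cspg4 (0.14) and Higd1b (0.55). No pair with Cnn1 passed either, with r from -0.29 to 0.46.

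**Figure D3:**
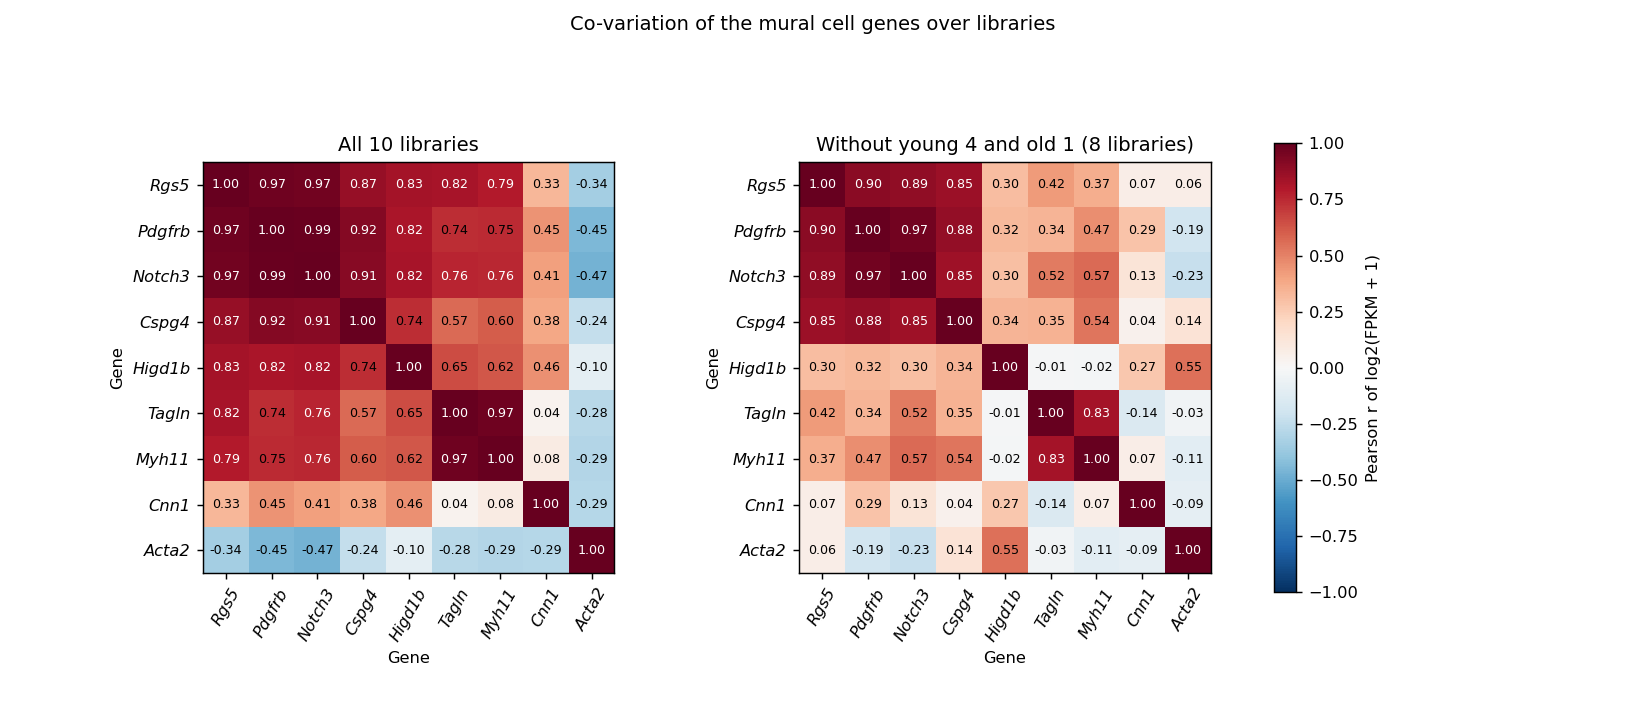
Pearson's r of log2(FPKM + 1) for every pair of mural cell genes (both axes, same order; colour and number give r) over all 10 libraries on the left and over the 8 libraries without young 4 and old 1 on the right. Rgs5, Pdgfrb, Notch3 and Cspg4 keep r of at least 0.85 among themselves in the right panel, Myh11 and Tagln keep 0.83, and Higd1b has 0.34 or less with the other pericyte genes.

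Markers of other vessel and stromal cells moved with the pericyte genes across libraries, and their part in these relations was not tested. The mean log2(FPKM + 1) of 4 marker lists was related to each of the 9 genes, with adjustment over these 36 relations. Rgs5 followed the endothelial list (Pecam1, Cdh5, Kdr and 9 others) with r = 0.98 (adjusted permutation p = 0.00306) and rho = 0.93 (adjusted permutation p = 0.0063), and r was 0.88 without young library 4 and old library 1. For Pdgfrb and Notch3 r with the endothelial list was 0.96 and 0.96, with rho of 0.89 and 0.83, and 0.91 and 0.85 without those libraries. With the fibroblast list the same 3 genes gave r of 0.91, 0.91 and 0.93, and 0.54, 0.63 and 0.67 without those libraries. Myh11 followed the leukocyte list with r = 0.89 (adjusted permutation p = 0.00653) and rho = 0.78 (adjusted permutation p = 0.0337), and r was 0.58 without young library 4 and old library 1. Acta2 gave r = -0.40 with the endothelial, -0.53 with the fibroblast, -0.42 with the leukocyte and 0.30 with the CM list, of which none passed (adjusted permutation p of 0.117 or more). With the CM list Rgs5 had r = -0.69 (adjusted permutation p = 0.0486) and rho = -0.49 (adjusted permutation p = 0.219), and r turned to 0.31 without young library 4 and old library 1. The other 8 genes did not pass with the CM list.

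By summed FPKM, the endothelial list ran from 504 to 1098 in young and from 515 to 974 in old libraries, the fibroblast list from 59.6 to 152 and from 56.3 to 160, and the leukocyte list from 21.9 to 70.1 and from 25.0 to 44.9. The Schwann cell list ran from 2.55 to 3.91 in young and 2.53 to 3.62 in old libraries, and the epicardial list from 3.09 to 8.20 and from 3.61 to 7.76. None of the markers was at 0 in all libraries, but among the leukocyte markers Cd3e of T cells was listed at 0 in 8 of 10 and Cd79a of B cells in 2. All 12 endothelial markers averaged 1 FPKM or more, as did all 10 fibroblast markers, 7 of 12 leukocyte, 3 of 6 epicardial and 1 of 6 Schwann cell markers.

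The comparison of old with young CMs asks whether the residual mural transcripts differ with age. Across the 12340 features that averaged 1 FPKM or more, limma on log2(FPKM + 1) called 1.78% (adjusted p under 0.05). This share was 0.268% to 1.18% with 1 library left out, lowest without old library 3. Among the 9 members 8 were tested and 0 were called, while 1, Acta2, had an unadjusted p under 0.05, as had 20.9% of all features. For 0 of the 9 members did the ages separate without overlap, which was so for 6.91% of the tested features. The median log2 difference (old minus young) of the 8 was -0.11, against -0.06 over all tested features. Without young library 4 the median of the 8 was 0.07 and without old library 1 it was -0.24. All 8 were below 0 in the main fit, but Notch3 (-0.006) and Pdgfrb (-0.02) turned above 0 with median-ratio scaling. Most of these genes move together across libraries, so their signs are not separate observations.

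The pericyte genes differed little between the ages against their spread. Rgs5 averaged 69.6 ± 27.9 FPKM in the young and 64.2 ± 29.8 FPKM in the old libraries, a log2 difference of -0.13 with a 95% interval from -0.78 to 0.53 (limma adjusted p = 0.858). Pdgfrb averaged 6.05 ± 2.22 and 5.97 ± 2.48 FPKM, a log2 difference of -0.02 with an interval from -0.56 to 0.52 (limma adjusted p = 0.975). The intervals of both leave room for a difference of about 0.5 in either direction. For Notch3 the means were 3.64 ± 1.27 and 3.68 ± 1.65 FPKM, for Cspg4 1.80 ± 0.397 and 1.63 ± 0.604 FPKM, and for Higd1b 3.80 ± 1.37 and 3.71 ± 1.87 FPKM. Their limma adjusted p-values were 0.991, 0.75 and 0.936. The narrowest interval of the 8, that of Cspg4, ran from -0.44 to 0.23.

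Of the smooth muscle genes, Myh11 averaged 1.40 ± 0.715 FPKM in the young and 1.17 ± 0.324 FPKM in the old libraries (log2 difference -0.12, limma adjusted p = 0.758). Tagln averaged 3.02 ± 1.82 and 2.45 ± 0.747 FPKM (log2 difference -0.16, limma adjusted p = 0.771). Both differences are above 0 without young library 4, at 0.04 for Myh11 and 0.08 for Tagln. Cnn1 lay below the minimum and was not tested across all features. It averaged 0.0733 FPKM in the young and 0.136 FPKM in the old libraries, the old mean being 186% of the young one, with young library 5 listed at 0. Its log2 difference was 0.08 on the log2(FPKM + 1) scale and 0.48 with a pseudocount of 0.1, and exact permutation of the 10 libraries between the ages, two-sided, gave p = 0.0476, the 1 value under 0.05 among 9 such tests, whose smallest possible p is 0.00794.

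Acta2 had the largest difference of the 9 genes. It averaged 35.0 ± 19.3 FPKM in the young and 18.5 ± 3.85 FPKM in the old libraries, so the old mean was 52.9% of the young one. The log2 difference was -0.75 with a standard error of 0.30 and a 95% interval from -1.43 to -0.08 (limma unadjusted p = 0.032, adjusted p = 0.193), and the exact permutation test gave p = 0.0556. Young libraries 1, 2 and 3 lay above all old libraries, and young libraries 4 and 5 lay within the old range. Without young library 1 the log2 difference was -0.50 (limma adjusted p = 0.301).

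**Figure D4:**
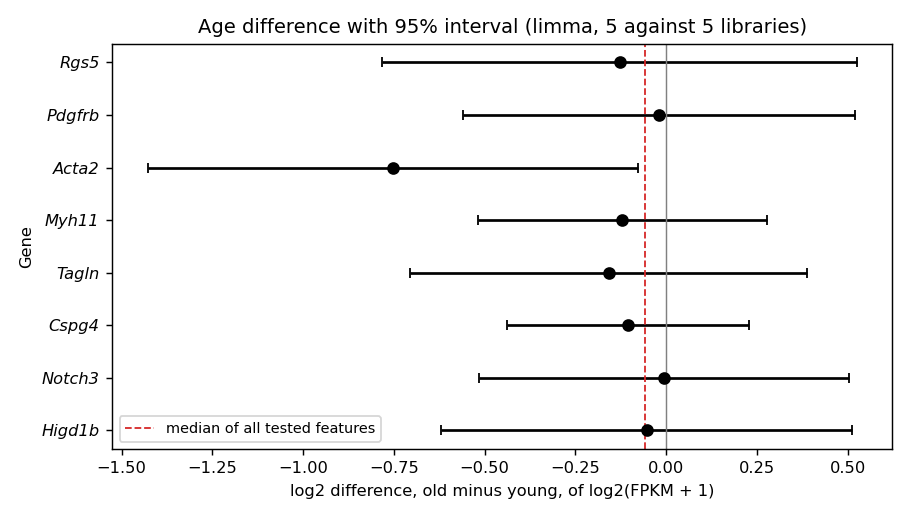
Log2 difference between old and young libraries (x axis, on the log2(FPKM + 1) scale, 5 against 5 libraries) of the 8 tested mural cell genes, as points with their 95% intervals from limma; the dashed line is the median of all tested features, -0.06. Acta2 lies at -0.75 with the upper end of its interval at -0.08, and the intervals of the other 7 include 0.

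The other actins were set beside Acta2, since no relation of Acta2 with another mural gene passed. Of 1732 stretches of 50 bases in the Acta2 transcript, 7 (0.404%) also occur in cytoplasmic gamma-actin Actg1 and 0 in Actc1, Actg2 or Actb. Only exact matches over 50 bases were counted. Near matches were not searched, so whether reads of other actins were counted for Acta2 was not tested. Actc1, the cardiac alpha-actin, stood at 10247, 7239, 8174, 6196 and 7324 FPKM in young and 6791, 7413, 8086, 7304 and 7350 FPKM in old libraries. It was highest in young libraries 1 and 3 among the young ones, as Acta2 was, while Acta2 amounted to between 0.205% (old library 1) and 0.633% (young library 1) of Actc1. Across the 10 libraries r with Acta2, given as a description, was 0.80 for Actc1 and 0.76 for the enteric smooth muscle actin Actg2, against 0.07 for Actb and 0.01 for Actg1. Young libraries 1 and 3, the farthest from the median of Acta2, were also the highest for Actc1 and Actg2. Whether r holds without these libraries was not tested. None of these 4 actins passed the limma test with age (limma adjusted p of 0.397 or more, with a log2 difference of -0.26 for Actg2 and -0.07 for Actc1).

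The genes most like Acta2 over the 10 libraries, among 10565 tested protein-coding genes, were Tmem14c, a mitochondrial inner membrane protein (r = 0.98), Cox11, an assembly factor of cytochrome oxidase (r = 0.97), and Pdlim7, an actin-associated PDZ and LIM domain protein (r = 0.97). Of the regulators of SRF target genes, Srf itself gave r = 0.64 with Acta2, Mkl1 0.37, Myocd 0.16 and Mkl2 -0.62, and 0 of 4 passed the limma test with age (adjusted p of 0.538 or more). All these r with Acta2 are descriptions over 10 libraries that include young 1 and 3, the farthest from its median.

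**Figure D5:**
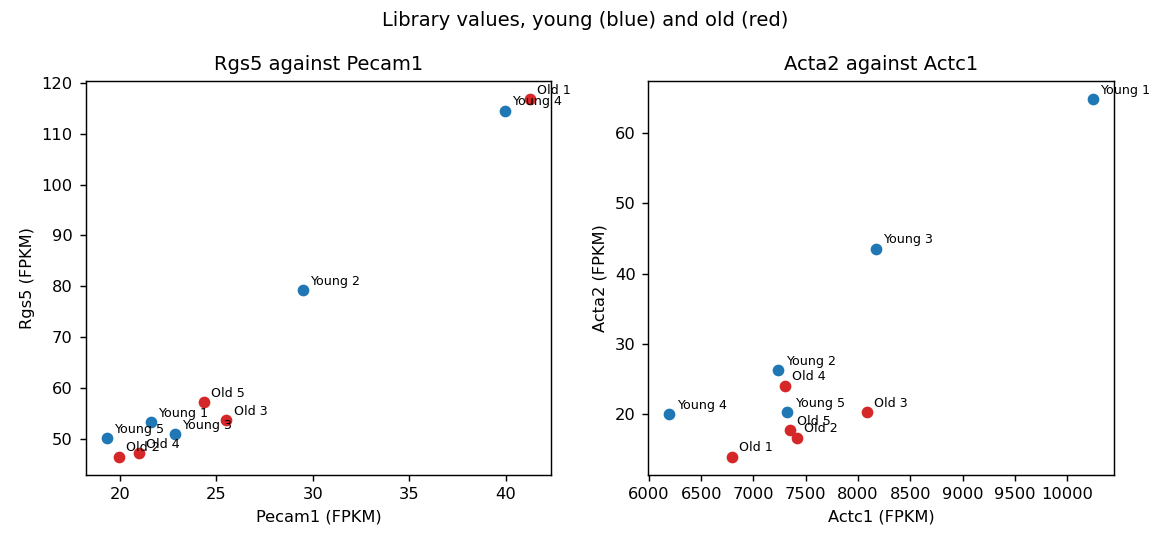
FPKM of Rgs5 against the endothelial marker Pecam1 (left) and of Acta2 against the cardiac actin Actc1 (right), 1 point per library (blue young, red old; linear axes that do not start at 0). Old 1 and young 4 lie at the upper right for Rgs5, whereas young 1 and young 3 lie at the top for Acta2.

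The pericyte genes had other nearest neighbours. For Rgs5 these were Cav2, a caveolin (r = 0.99), the membrane metalloprotease Adam15 (r = 0.99) and 9430020K01Rik (r = 0.99). For Pdgfrb they were Wwtr1, the transcriptional coactivator TAZ (r = 0.99), Nid1, a basement membrane linker (r = 0.98), and Ano6, a phospholipid scramblase (r = 0.98). Notch3 shared Ano6 and Nid1 (r of 0.98 each), and was further matched by Wasf2 (r = 0.98). Cspg4 was followed by Erap1, Dnase2a and Stard8 (r of 0.98, 0.98 and 0.96), and Higd1b by Hic1, Eif1a and Dok4 (r of 0.95 each). Myh11 and Tagln shared Rnd2, a small GTPase, with r of 0.93 and 0.96. Myh11 was further matched by Emilin1 (r = 0.95) and Galnt10 (r = 0.94), and Tagln by Syap1 and Gng10 (r of 0.95 each). These values are descriptions over 10 libraries of which young 4 and old 1 stand apart.

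Of 17 further genes known from pericytes, 13 averaged 1 FPKM or more, and 0 of these passed the limma test with age. Their log2 differences were above 0 for 2 and below 0 for 11, with a median of -0.09, and 10 of the 13 had r over 0.8 with Rgs5, as had 8.64% of the 10565 protein-coding genes. Whether this is particular to pericyte genes was not tested, and the endothelial markers had r = 0.98 with Rgs5 as a list. Ndufa4l2, a mitochondrial protein of hypoxic cells and pericytes, had r = 0.97 with Rgs5 and a log2 difference of -0.19 (limma adjusted p = 0.727), and Rgs4, a relative of Rgs5, r = 0.91 and -0.30 (limma adjusted p = 0.521). By contrast, Ednra, an endothelin receptor, gave r = -0.04 with Rgs5, at 7.72 to 9.41 FPKM in all libraries. Abcc9, the sulphonylurea receptor subunit of ATP-sensitive potassium channels, gave r = 0.28, whereas its channel partner Kcnj8, named after its values were seen, gave r = 0.98.

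Of 15 further smooth muscle genes, 12 were tested and 0 passed, with 3 log2 differences above 0, 9 below 0 and a median of -0.11. The smallest p-values were those of Pcp4l1, a calmodulin-regulator-like protein, with a log2 difference of -0.29 (limma adjusted p = 0.0653), and Smtn, which encodes the contractile protein smoothelin, with -0.12 (limma adjusted p = 0.0865). Their means were 108 and 48.0 FPKM, against 2.74 for Tagln and 1.29 for Myh11. For these 2 genes r was -0.16 and 0.05 with Rgs5 and -0.15 and 0.25 with Tagln. Which cells their transcripts came from was not tested. Tpm2, a tropomyosin, had a log2 difference of 0.28 (limma adjusted p = 0.329) and Synpo2, an actin-bundling protein, of -0.11 (limma adjusted p = 0.396). With Rgs5, r was over 0.8 for 3 of the 12.

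Of 17 genes of PDGF and Notch signalling, 13 were tested and 0 passed, with 5 log2 differences above 0, 8 below 0 and a median of -0.02, and 10 of the 13 had r over 0.8 with Rgs5. Pdgfb, the ligand of Pdgfrb, had a mean of 10.2 FPKM, a log2 difference of 0.20 (limma adjusted p = 0.639) and r = 0.84 with Rgs5. Pdgfa, a ligand of the alpha receptor, had a log2 difference of -0.17 (limma adjusted p = 0.35) and r = 0.40 with Rgs5. The values were 0.16 and 0.85 for Pdgfd (limma adjusted p = 0.67), another ligand of Pdgfrb, and -0.17 and 0.87 for Notch4 (limma adjusted p = 0.74), a Notch receptor of endothelial cells. In none of the endothelial, fibroblast, leukocyte, Schwann cell, epicardial or CM lists did a tested marker pass with age, and the median log2 differences of these lists ran from -0.06 (CM) to 0.11 (fibroblast). In the fibroblast list 9 were above 0 and 1 below 0, and Postn had the smallest p (log2 difference 0.57, limma adjusted p = 0.233). In the CM list 3 were above 0 and 7 below 0, and Tnni3 had the smallest p (-0.22, limma adjusted p = 0.0886).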

How the data were processed

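RNA of purified cardiomyocytes was sequenced in 5 young and 5 old libraries, on a single flow cell per the labels. The authors mapped read pairs onto mm9 with TopHat2 and kept those with a unique alignment. After counting with HTSeq, the authors deposited from DESeq2 a signal per gene, the mean of normalised counts, of which 73.9% fell in entries that name no gene. The deposited FPKM per library come from Cufflinks and were used as given after removal of 1 stray header line. DESeq2 fold changes and p-values of the authors were not used, nor were 10 columns of per-sample values. Reads per library are not stated, so no counting interval is given, and the settings of Cufflinks are not given in the sources used here.

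Groups follow the labels. Features averaging 1 FPKM or more were compared between ages by limma 3.58.1 under R 4.3.3 (eBayes with a trend, log2(FPKM + 1), two-sided, Benjamini-Hochberg over all tested features, threshold 0.05), checked on simulated data. A difference on this scale understates changes of low genes. Single genes were compared with exact permutation tests, and relations with permutation tests (scipy 1.17.1, Python 3.11.15). No source states that each library is a separate animal. A legend of the study names fewer mice per age than there are libraries, while another gives n = 5 per age group. Libraries may thus share an animal, and p-values measure the spread between these libraries, which may be technical. Named genes were the 9 members, up to 4 genes with the smallest p per list, all SRF regulators and actin paralogs, and the 3 genes most like each tested member. Some markers, such as Pecam1 and Cd3e, were named only as examples of their list. The 9 members and all lists were chosen with earlier results of these data known. Alternatives were a pseudocount of 0.1, no minimum, a minimum of 5 FPKM, median-ratio scaling, equal protein-coding totals, a replicate block, leaving out libraries, age-centred values and Spearman's rho. Coordinates are from GENCODE on mm9, and promoters from RefSeq. A 95% interval is limma's.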

Additional observations from a re-analysis of the deposited data

Results flagged for a closer look

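In 7 of the 18 groups of 5 libraries (9 genes, 2 ages), 1 library lay far from the other 4, by the gap to its nearest neighbour over the whole range. Chance gives about 1 in 20 for a single group. This rate does not apply to the 7 together, since the genes move together and every flag was old library 1 or young library 4. Old library 1 was highest for Rgs5 at 117 FPKM (next 57.2), for Pdgfrb at 10.3 (next 5.37), for Notch3 at 6.56 (next 3.34), for Cspg4 at 2.68 (next 1.59) and for Higd1b at 6.95 FPKM (next 3.63). Young library 4 was highest for Tagln at 6.27 FPKM (next 2.35) and for Myh11 at 2.68 FPKM (next 1.18). In young library 4 Rgs5 was also high, at 2.14 times its median over the 10 libraries against 2.19 times in old library 1, but young library 2 was high as well, so its gap was small.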

How the results depend on the processing

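No member was called under any of 17 alternatives. The number of features called moved from 220 (85 higher, 135 lower) to 118 (93 higher, 25 lower) with median-ratio scaling, 169 (101 higher, 68 lower) with equal protein-coding totals, 49 without young library 4 and old library 1, and 33 to 146 when each library was left out. Same-numbered libraries did not deviate together (correlations from -0.155 to 0.0618), and with the replicate block 26 features were called. Of 36 pairs, 17 passed, 7 to 17 with single libraries left out (7 without young 4, 9 without old 1) and 1 without both, when the median r was 0.31. Small log2 differences changed sign: Pdgfrb was 0.023 and Notch3 0.034 with median-ratio scaling, 0.030 and 0.040 with equal protein-coding totals. With each library left out, they ran from -0.21 to 0.12 for Pdgfrb, -0.19 to 0.12 for Notch3 and -0.26 to 0.083 for Higd1b. For Rgs5 they ran from -0.36 to 0.070, for Myh11 from -0.18 to 0.042 and for Tagln from -0.26 to 0.078. The upper end of each of these genes came without young library 4. Acta2 stayed between -0.91 and -0.50, with limma adjusted p from 0.141 to 0.317. The cause of these moves was not tested.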
